A study of Mus musculus with 3 samples.

Results

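The 9 genes described here belong to T cell costimulation and were followed through thymic invariant natural killer T (iNKT) cell libraries. They were Icos, Cd28, Cd27, Tnfrsf4, Tnfrsf9, Tnfrsf18, Cd40lg, Tnfsf8 and Tnfsf11, matched by symbol and found in all 3 libraries, 9 of the 30406 gene identifiers that the libraries share. The rule lists them by name and uses no measured value, but they were chosen with earlier results of these data known. Counts of these genes set beside shares of all genes therefore only describe. Icos and Cd28 encode receptors of the immunoglobulin superfamily, Cd27, Tnfrsf4, Tnfrsf9 and Tnfrsf18 encode receptors of the tumor necrosis factor (TNF) receptor superfamily, and Cd40lg, Tnfsf8 and Tnfsf11 encode ligands of the TNF superfamily, so 3 of the 9 are ligands rather than receptors.

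Thymocytes depleted of CD8+ cells were sorted as TCRβ+ cells that bound CD1d tetramer and lacked CD24 and NK1.1, and each group was 1 droplet library of cells pooled from several mice. The C57BL/6 group was mice without transplantation, labelled WT and 7 weeks. The BM only group (non-GvHD) was lethally irradiated F1 mice (C57BL/6 crossed with BALB/c) that received T cell-depleted C57BL/6 marrow, labelled 16 weeks, 9 weeks after bone marrow transplantation (BMT). The BM + Spl group (GvHD) was the same F1 host with the same marrow plus C57BL/6 splenic cells, at the same age and time, so irradiation and marrow were shared by both BMT groups. The labels do not separate cells of host and donor, and 1 library per group left no replicate: no test was run, and every interval is a 95% interval for counting error only.

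The libraries held 4613 to 5986 deposited cells and 35041153 to 60600408 unique molecular identifiers (UMIs, each 1 counted transcript), and 4434, 5970 and 5557 cells were kept for C57BL/6, BM only and BM + Spl. The study states fewer cells for both BMT libraries, and slightly more for C57BL/6, after the same filter, so its cell sets and those used here differ. Median depth of kept cells was 12086, 4740 and 6495 UMIs, and the median mitochondrial share was 6.48%, 0.687% and 0.511%. The C57BL/6 matrix came from another Cell Ranger version than the BMT matrices and shared no barcode with them, while the BMT libraries shared 43 barcodes. The sources used here do not say which kit made which library. Strain, host, age, software and any difference in kit cannot be told apart between C57BL/6 and BMT libraries. Levels were therefore compared only within C57BL/6 or between the BMT libraries.

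T cells are activated through the antigen receptor together with costimulatory receptors: CD28 and ICOS bind ligands of the B7 family, and OX40, 4-1BB, GITR and CD27 bind TNF family ligands and signal through TRAF adaptors to NF-κB. The ligands CD40L, CD30L and RANKL are carried by T cells to other cells. In the thymus, RANKL and CD40L from mature thymocytes, iNKT cells included, are known for driving growth of medullary epithelium, and OX40, GITR and 4-1BB are known as high on developing regulatory T (Treg) cells.

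The genes lie on GRCm38 chromosomes 1 (Cd28, 60716800 to 60773359, and Icos, 60977927 to 61000320, both on the plus strand), 4 (Tnfsf8, Tnfrsf9, Tnfrsf4 and Tnfrsf18), 6 (Cd27), 14 (Tnfsf11) and X (Cd40lg). Tnfrsf4 (156013843 to 156016612) and Tnfrsf18 (156026164 to 156028895) are plus-strand neighbours, 9551 bases apart. In GENCODE vM21, Cd27, Tnfrsf9 and Tnfrsf18 overlap the opposite-strand genes Vamp1, Camta1 and Gm16008, and whether counting used the strand is not given in the sources used here.

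Upstream sequence was read for the genes whose order between NKT2-like and NKT1-like cells turned between libraries, Tnfrsf4, Tnfrsf9 and Tnfsf11. That of Tnfrsf4 shares 166 bases with an annotated exon and is not printed. The 250 bases before the second start of Tnfrsf9 (81 shared bases), before Tnfrsf18 (158) and before Tnfsf8 (63) also overlap an annotated exon. RefSeq promoter records (GRCm38.p6) were found for 6 of the 9 genes, as 7 records. The 250 bases before the start of Tnfsf11 (chr14:78308044-78308293, minus strand) and before the first start of Tnfrsf9 (chr4:150919905-150920154, plus strand), and 30 bases before its second start (chr4:150927969-150927998, plus strand), are given 5′ to 3′, with motif matches in capitals.
Tnfsf11: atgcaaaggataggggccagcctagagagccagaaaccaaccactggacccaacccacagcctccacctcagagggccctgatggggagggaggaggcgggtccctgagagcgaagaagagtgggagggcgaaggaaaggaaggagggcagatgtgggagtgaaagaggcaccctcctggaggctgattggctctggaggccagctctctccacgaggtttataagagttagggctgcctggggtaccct
Tnfrsf9, first start: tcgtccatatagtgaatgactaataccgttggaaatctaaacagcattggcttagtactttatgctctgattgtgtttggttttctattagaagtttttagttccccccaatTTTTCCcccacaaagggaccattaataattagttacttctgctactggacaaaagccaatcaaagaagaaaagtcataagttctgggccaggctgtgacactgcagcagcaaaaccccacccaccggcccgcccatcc
Tnfrsf9, second start: gaggccctgctcagtTGAGTCAcaggtcct
The motifs TGANTCA and GGAAAA were searched on both strands in the 250 bases. The AP-1 motif TGANTCA was found 15 to 9 bases before the second start of Tnfrsf9 and in 6.75% of 32851 promoters. The NFAT core GGAAAA was found before the first start of Tnfrsf9, before Tnfrsf18 and before Cd27, and in 20.4% of promoters. Neither motif was in the windows of Tnfsf11, Tnfsf8 or Tnfrsf4.

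Cells were assigned to subsets by counted marker UMIs after each cell was thinned to 2500 UMIs, except that Foxp3 was also read in the full counts. NKT1-like cells (Tbx21, Nkg7, Il2rb and other markers of the interferon-γ program) numbered 898, 2237 and 562 in C57BL/6, BM only and BM + Spl, and NKT2-like cells (Zbtb16, Il4, Il17rb and others) numbered 1486, 560 and 933. NKT17-like cells (Il23r, Ccr6 and others) numbered 143, 414 and 257, and cells with markers of both NKT1 and NKT2, called intermediate, numbered 480, 163 and 352. Treg-like cells (Foxp3, Ikzf2, Il2ra, Ctla4 and others) numbered 638 and 859 in BM only and BM + Spl, with Foxp3 at 409.9 and 358.0 counts per 1000000 UMIs of the subset (CPM). The 29 cells of this gate in C57BL/6 had Foxp3 at 12.5 CPM and are not described. CD8-like, cycling-like, B cell-like and plasmacytoid dendritic cell (pDC)-like cells were set apart, as were cells under 2500 UMIs, and T cells that met no gate are called remaining.

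The name NKT1-like did not hold the same cells in both BMT libraries. Of NKT1-like cells with an assigned TCR β variable segment, 92.8% (1776 of 1913) in BM only and 37.4% (178 of 476) in BM + Spl used the segments common in iNKT cells, against 97.1% and 96.1% of NKT2-like and 30.04% and 30.21% of Treg-like cells. Cd4 stood at 30.8 and 231 CPM in NKT1-like cells of BM only and BM + Spl. Zbtb16, which encodes PLZF, a transcription factor of iNKT cells that is low in NKT1 cells, stood at 44.6 and 27.5, and Tbx21 at 138 and 83.1. The Treg list without Foxp3 stood at 74.2 and 280.2 CPM, and Foxp3 was 0 by construction of the gate. NKT1-like values are therefore also given for cells split by segment and by Zbtb16. Of the 1776 NKT1-like cells of BM only with iNKT segments, 1466 had no Zbtb16 UMI. In BM only, the lack of a Zbtb16 UMI therefore does not by itself mark an NKT1-like cell as other than iNKT. In BM + Spl, 34 of the 47 NKT1-like cells with a Zbtb16 UMI had iNKT segments, and 144 of the 515 without one.

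**Figure D1:**
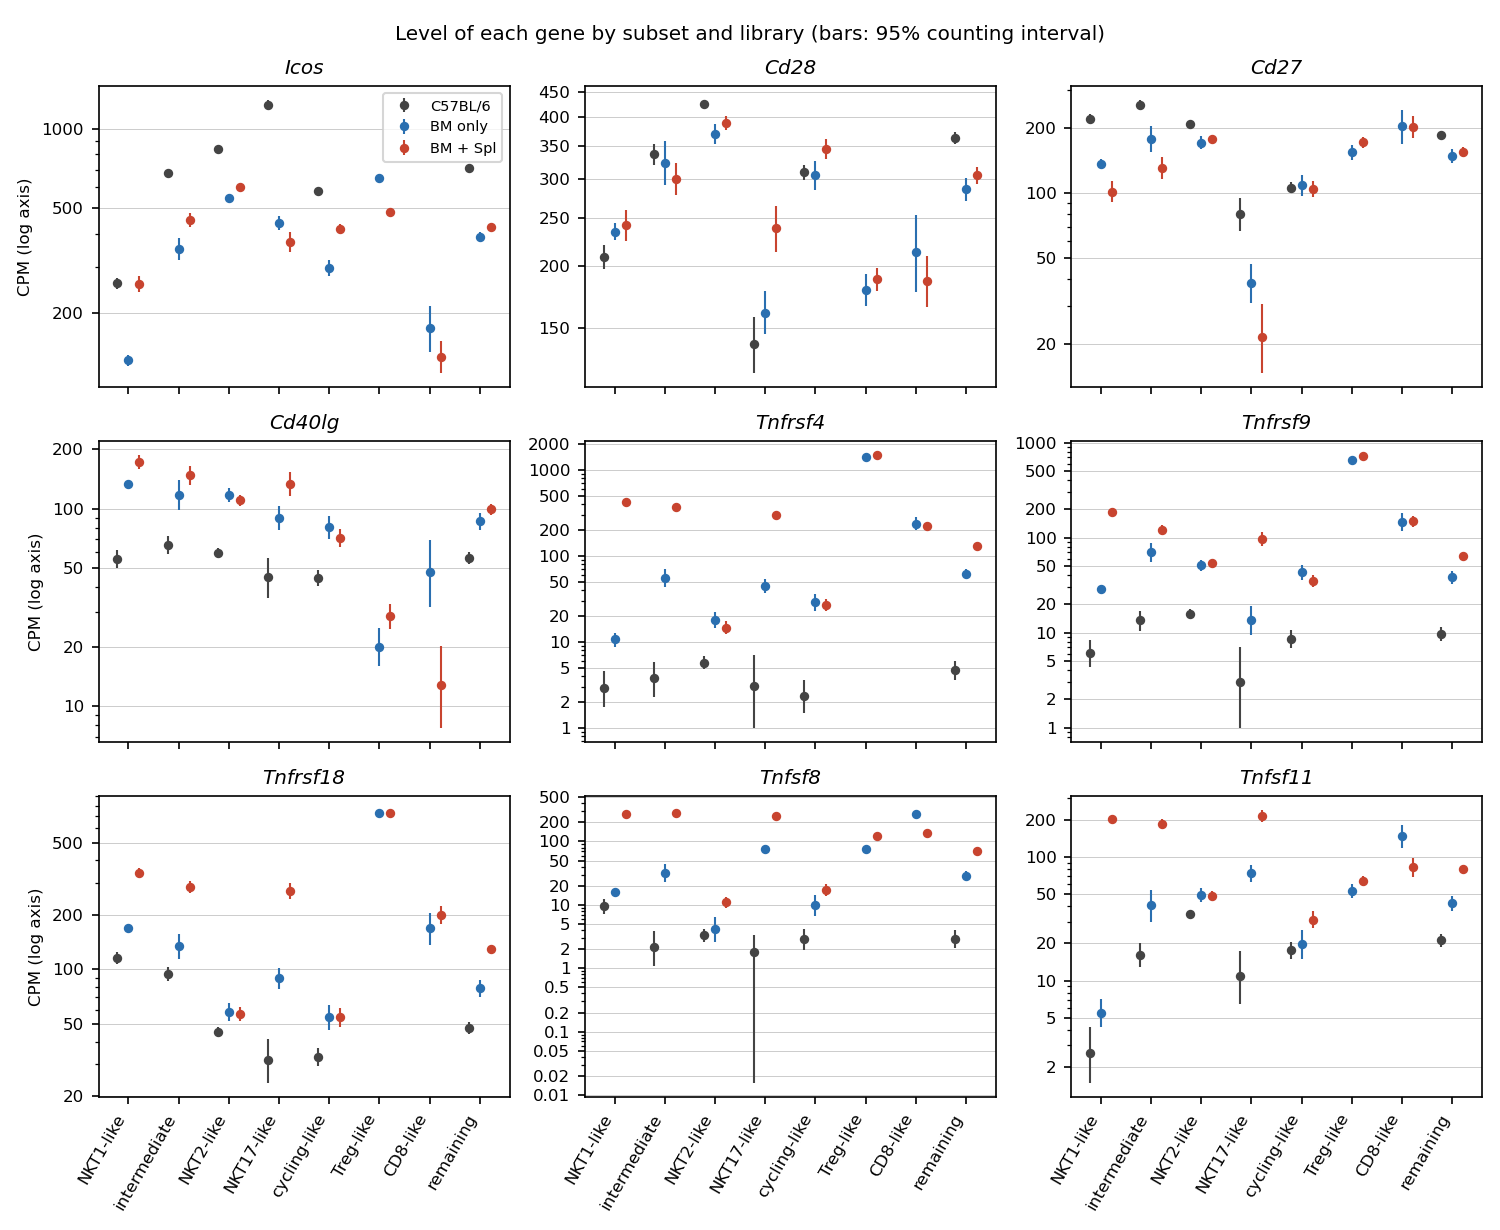
Level of each gene (CPM, log axis with its own range per panel) by subset (horizontal axis) in each of the 3 libraries; points are summed UMIs of the subset and bars 95% counting intervals, and subsets under 50 cells are left out. Tnfrsf4 in NKT1-like cells stands at 10.6 in BM only and 425 in BM + Spl, while the NKT2-like and Treg-like points of these libraries lie close together.

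Icos, the inducible costimulator that binds ICOS ligand, was measured in all cells at 699.6, 334 and 420.3 CPM in C57BL/6, BM only and BM + Spl. In C57BL/6 its order was NKT17-like (1233), NKT2-like (836), remaining (710.2), intermediate (679), cycling-like (580.2) and NKT1-like cells (260.1), and the intervals of neighbours overlapped only for remaining and intermediate cells. NKT1-like cells were also low in BM only (133) and BM + Spl (259), with CD8-like cells at 176 and 137. The highest subset was Treg-like in BM only (649.7) and NKT2-like in BM + Spl (603).

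Cd28, the receptor for CD80 and CD86, was highest in NKT2-like cells among the gated T cell subsets of each library, at 425, 369.7 and 389 CPM in C57BL/6, BM only and BM + Spl. NKT1-like cells stood at 209, 235 and 242 in the same order. The lowest T cell subset was NKT17-like in C57BL/6 (139) and BM only (161, with an interval that overlapped that of Treg-like cells at 179), whereas in BM + Spl CD8-like (186) and Treg-like cells (188) were lowest and their intervals overlapped.

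Cd27, the receptor for CD70, was low in NKT17-like cells everywhere, at 80.1, 38.3 and 21.5 CPM in C57BL/6, BM only and BM + Spl. NKT2-like cells stood at 209, 172 and 178 and NKT1-like cells at 221, 137 and 102. In C57BL/6 the intermediate cells were highest (257), and in the BMT libraries CD8-like cells were highest (204 and 203), with intervals that overlapped those of NKT2-like cells in both.

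Tnfrsf4, Tnfrsf9 and Tnfrsf18, which encode OX40, 4-1BB and GITR, were highest in Treg-like cells of both BMT libraries. Tnfrsf4 stood at 1439 and 1482 CPM in Treg-like cells of BM only and BM + Spl, and at 18.02 and 14.62 in NKT2-like cells. Tnfrsf9 stood at 651 and 725 against 50.9 and 53.6, and Tnfrsf18 at 733 and 728 against 58.3 and 56.6. In both libraries 4 genes were higher past 1.5-fold in Treg-like than NKT2-like cells, these and Tnfsf8, where 22.3% of all genes tested were higher in BM only and 22.3% in BM + Spl. In C57BL/6, Tnfrsf4 was near the bottom of the range, with 267 UMIs among 58794317, and all 6 subsets described there lay between 2.36 and 5.71 CPM. Among these 6 subsets Tnfrsf9 was highest in NKT2-like (15.8) and intermediate cells (13.4), with overlapping intervals, and Tnfrsf18 in NKT1-like (116) and intermediate cells (94.4). The 29 Treg-like cells of C57BL/6, not described, held 3.42% of Tnfrsf9 UMIs (24 of 701) and 0.545% of all UMIs.

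The ligand genes did not share one order. Cd40lg, the ligand of CD40 on B cells, dendritic cells and epithelium, was lowest among T cell subsets in Treg-like cells of BM only (83 UMIs; 15.9 to 24.8 CPM) and in CD8-like cells of BM + Spl (12.8), and highest in NKT1-like cells of both (133 and 172), with overlapping intervals of intermediate cells. Tnfsf8, which encodes CD30L, had only 219 UMIs in C57BL/6, where NKT1-like cells (9.54) stood above the other subsets described. In BM only Tnfsf8 was highest in CD8-like cells (271) and, among T cell subsets, lowest in NKT2-like cells (4.21). In BM + Spl, Tnfsf8 was highest in intermediate (286), NKT1-like (273) and NKT17-like cells (254), whose neighbouring intervals overlapped. Tnfsf11, which encodes RANKL, was highest in NKT2-like (34.3) and lowest in NKT1-like cells (2.59) of C57BL/6, and in BM only NKT1-like cells were again the lowest T cell subset (5.50). In BM + Spl the highest subsets for Tnfsf11 were NKT17-like (216), NKT1-like (203) and intermediate cells (187), with overlapping intervals of neighbours.

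In BM only, 80.5% of all Tnfrsf4 UMIs, 67.4% of Tnfrsf9 UMIs and 45.6% of Tnfrsf18 UMIs lay in Treg-like cells, which were 10.7% of cells. In BM + Spl these shares were 64.3%, 61.5% and 48.7%, with Treg-like cells at 15.5% of cells. NKT1-like cells held 1.56% and 8.47% of Tnfrsf4 UMIs in BM only and BM + Spl, while their share of cells was 37.5% and 10.1%. Their share of Tnfsf11 UMIs was 5.15% and 18.5%. For Cd28, 28.7% and 6.31% of UMIs lay in NKT1-like cells.

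**Figure D2:**
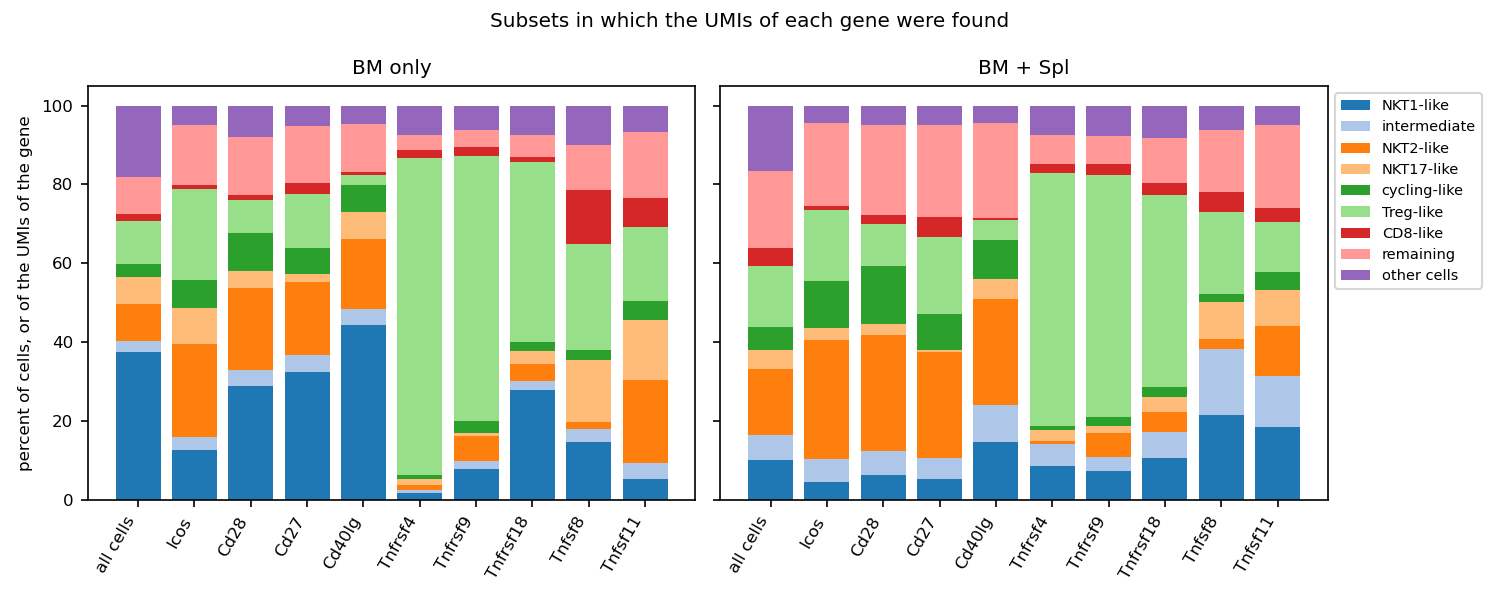
Share of each gene's UMIs (percent, vertical axis) found in each subset, with the share of cells in the first bar, for BM only and BM + Spl; other cells are B cell-like, pDC-like, myeloid-like and cells under 2500 UMIs. Treg-like cells hold 80.5% and 64.3% of Tnfrsf4 UMIs in the respective libraries.

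The first comparison asked how the NKT2-like and NKT1-like subsets differ within each library. In C57BL/6, 5 of the 9 genes were higher past 1.5-fold in NKT2-like cells (Icos, Cd28, Tnfrsf4, Tnfrsf9 and Tnfsf11) and 2 lower (Tnfrsf18 and Tnfsf8), where 14.4% of all genes tested were higher and 14.7% lower. BM only gave the same 5 genes higher and the same 2 lower, with 15.1% and 16.7% of all genes. In BM + Spl, 3 genes were higher (Icos, Cd28 and Cd27) and 6 lower (Cd40lg, Tnfrsf4, Tnfrsf9, Tnfrsf18, Tnfsf8 and Tnfsf11), with 13.9% and 17.1% of all genes. Tnfsf11 showed the turn: its log2 ratio of NKT2-like over NKT1-like cells was 3.73 (3.02 to 4.55) in C57BL/6, 3.16 (2.75 to 3.60) in BM only and -2.06 (-2.24 to -1.89) in BM + Spl. For Tnfrsf4 the log2 ratios were 0.97, 0.76 and -4.86, and for Tnfrsf9 1.36, 0.84 and -1.80. Icos kept its direction in the 3 libraries, with log2 ratios of 1.68, 2.04 and 1.22. The NKT1-like gate held different cells in the BMT libraries, with iNKT segments in 92.8% of assigned cells in BM only and 37.4% in BM + Spl.

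NKT17-like cells differed from NKT2-like cells in both directions. In C57BL/6 Icos was higher in them, 1.48-fold (1.41 to 1.54) and inside the limit, and 6 of 9 genes were lower past 1.5-fold (Cd28, Cd27, Tnfrsf4, Tnfrsf9, Tnfsf8 and Tnfsf11), where 11.6% of all genes tested were lower, and the intervals of Tnfrsf4 and Tnfsf8, with 5 UMIs and 1 UMI, included no difference. In BM only 3 genes were higher in NKT17-like cells (Tnfrsf4, Tnfrsf18 and Tnfsf8) and 3 lower (Cd28, Cd27 and Tnfrsf9), where 15.8% and 11.6% of all genes were. In BM + Spl 5 were higher (Tnfrsf4, Tnfrsf9, Tnfrsf18, Tnfsf8 and Tnfsf11) and 3 lower (Icos, Cd28 and Cd27), where 18.1% and 16.5% were. Cd27 was lower in NKT17-like cells in each library, with log2 ratios of -1.39, -2.17 and -3.05 in C57BL/6, BM only and BM + Spl.

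The second comparison set BM + Spl against BM only, the contrast for GvHD. Over all cells, 4 of the 9 genes were higher past 1.5-fold in BM + Spl and 0 lower, where 6.83% of 12802 genes were higher and 8.28% lower. Tnfsf8 was 2.77-fold higher (2.60 to 2.96), Tnfsf11 2.38-fold (2.22 to 2.54), Tnfrsf4 1.71-fold (1.66 to 1.76) and Tnfrsf9 1.61-fold (1.55 to 1.68). The other 5 genes lay between 0.917-fold (Cd40lg) and 1.26-fold (Icos), inside the 1.5-fold limits. In bulk sums over cells, more cells of a type and more RNA per cell cannot be told apart, so subsets were weighed next.

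When BM + Spl levels were weighted by the subset shares of BM only, the log2 ratio became 2.18 for Tnfsf8, 1.84 for Tnfsf11, 0.89 for Tnfrsf4, 0.72 for Tnfrsf9 and 0.53 for Tnfrsf18. Changing the subset shares alone, with the BM only levels kept, gave 0.13, 0.30, 0.35, 0.31 and -0.01 for the same genes. For Cd28 and Cd27 all 3 forms of the ratio lay between -0.08 and 0.12. For Cd40lg the ratio of -0.12 over all cells was 0.26 at BM only shares and -0.26 from the shares alone. The weighting takes each subset as the same cells in both libraries. The share of assigned cells with iNKT segments was 92.8% and 37.4% in NKT1-like, 66.7% and 33.8% in NKT17-like and 89.4% and 58.25% in intermediate cells. Different cells within a subset and different levels per cell therefore cannot be told apart here.

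Within NKT1-like cells, 6 of 9 genes were higher past 1.5-fold in BM + Spl and 0 lower, where 11.3% of 9589 genes were higher and 10.1% lower. Tnfrsf4 stood at 10.6 CPM in BM only and 425 in BM + Spl, 39.9-fold higher (33.0 to 48.7). Tnfsf11 stood at 5.50 and 203, 36.8-fold higher (28.2 to 48.8), and Tnfsf8 at 15.7 and 273, 17.4-fold higher (14.8 to 20.6). Tnfrsf9, at 28.4 and 187, was 6.58-fold higher (5.72 to 7.57). Tnfrsf18 (170 and 341) and Icos (133 and 259) were 2.01-fold and 1.95-fold higher. Cd28 was 1.03-fold (0.949 to 1.12), Cd40lg 1.30-fold and Cd27 0.741-fold in BM + Spl. The genes of OX40, 4-1BB, CD30L and RANKL thus had the largest ratios among the 9 genes in this subset.

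**Figure D3:**
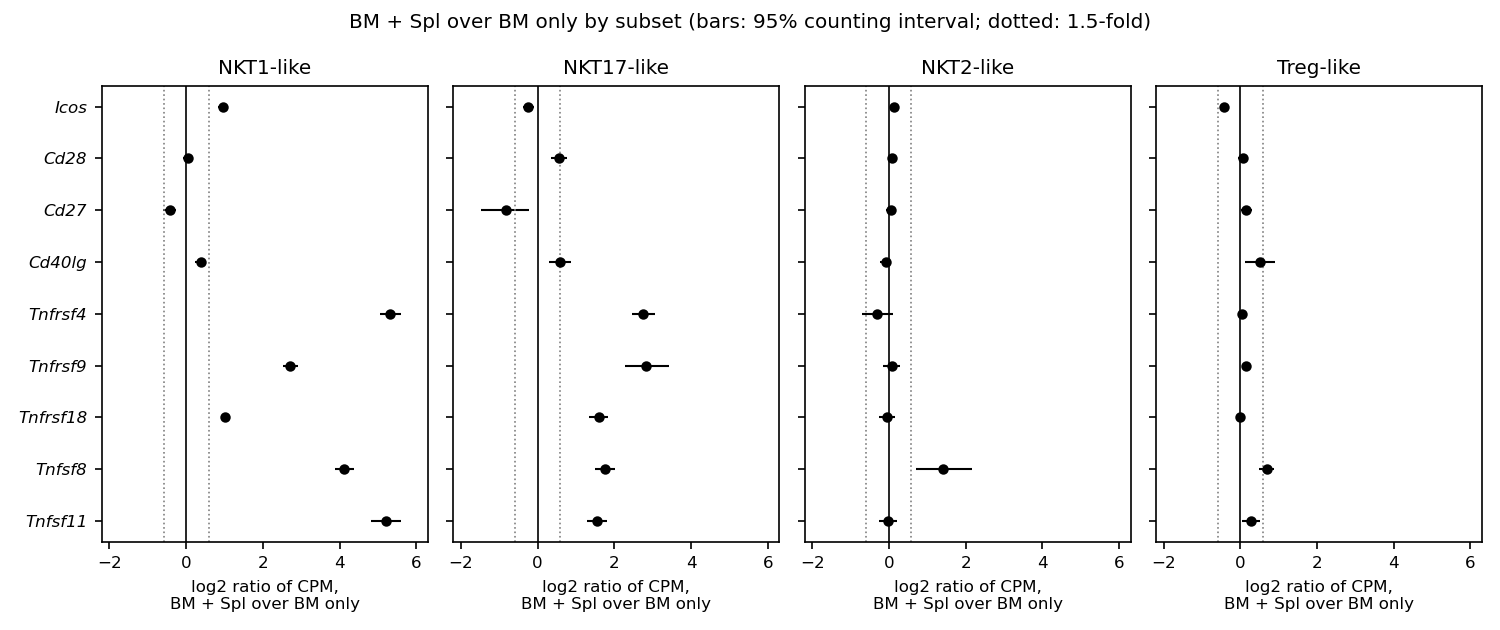
Log2 ratio of CPM in BM + Spl over BM only (horizontal axis) of each gene in NKT1-like, NKT17-like, NKT2-like and Treg-like cells; bars are 95% counting intervals and dotted lines mark 1.5-fold. Ratios reach 5.32 for Tnfrsf4 in NKT1-like cells, whereas in NKT2-like and Treg-like cells only Tnfsf8 lies past 1.5-fold.

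Cells that carried several of these transcripts at once were counted at 2500 UMIs per cell for the set Tnfrsf4, Tnfrsf9, Tnfrsf18, Tnfsf8 and Tnfsf11, a set chosen after the values had been seen. At least 3 of the 5 were detected in 0.492% of NKT1-like cells in BM only (11 of 2237; 0.246 to 0.878%) and in 28.8% in BM + Spl (162 of 562; 25.1 to 32.8%). None of the 5 was detected in 59.5% and 17.1% of NKT1-like cells. Treg-like cells held at least 3 in 51.9% and 55.5% of cells, and NKT2-like cells in 1.43% and 0.965%. In B cell-like cells the share was 0 of 78 in BM only, which allows up to 3.85%, and 5.26% (3 of 57) in BM + Spl, at median depths of 6152 and 8167 UMIs.

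**Figure D4:**
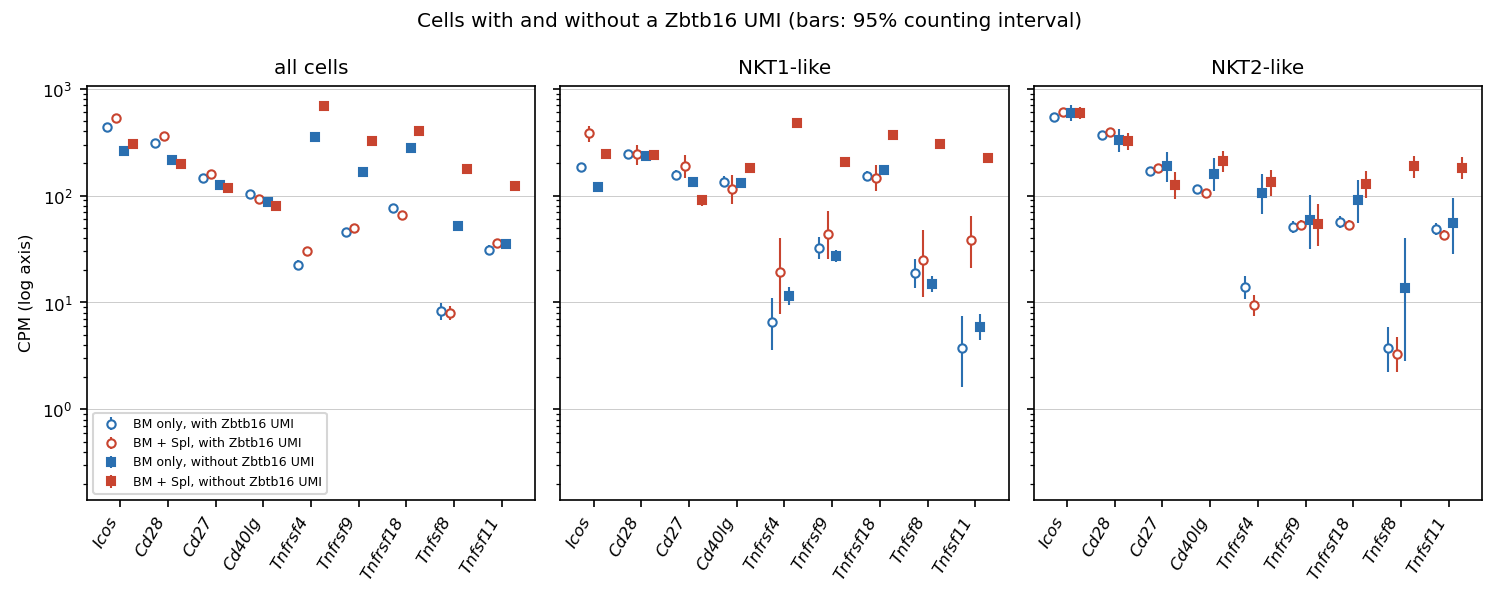
Levels (CPM, log axis) of each gene in cells with a Zbtb16 UMI (open circles) and without one (filled squares) in BM only and BM + Spl, for all cells, NKT1-like and NKT2-like cells; bars are 95% counting intervals. Among NKT1-like cells without a Zbtb16 UMI, Tnfrsf4 stands at 11.6 in BM only and 478 in BM + Spl, against 6.62 and 19.3 with one.

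The higher levels lay mostly in cells without a Zbtb16 UMI, a split made after the values had been seen, by a gene that the NKT2 list also holds. Among all cells with a Zbtb16 UMI (1785 in BM only and 1983 in BM + Spl), 0 of 9 genes were past 1.5-fold, where 2.12% of all genes tested were higher and 7.79% lower, and the log2 ratios ran from -0.20 (Tnfrsf18) to 0.44 (Tnfrsf4). Among cells without one (4185 and 3574), they were 1.80 for Tnfsf11, 1.77 for Tnfsf8, 0.98 for Tnfrsf4 and 0.95 for Tnfrsf9. Cells with and without a Zbtb16 UMI also differ in depth and subset. Median depth in BM only and BM + Spl was 7180 and 9951 UMIs with one, and 4241 and 4829 without. In BM + Spl, 884 of the 1983 cells with one were NKT2-like, and 824 of the 3574 without one were Treg-like. The pooled ratios did not hold in each subset. With a Zbtb16 UMI, Tnfrsf4 was 2.28-fold (1.41 to 3.86) in remaining and 2.27-fold (1.22 to 4.505) in intermediate cells. It was 3.99-fold (1.26 to 12.0) in NKT17-like cells, on 9 and 7 UMIs. In NKT2-like cells it was 0.67-fold (0.48 to 0.94), and in cycling-like cells 1.69-fold (0.843 to 3.67). Of NKT1-like cells, 16.9% had a Zbtb16 UMI in BM only (378) and 8.36% in BM + Spl (47), at median depths of 4810 and 6974 UMIs, against 4458 and 4609 UMIs in those without.

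With a Zbtb16 UMI, Tnfrsf4 in NKT1-like cells stood at 6.62 CPM in BM only (14 UMIs) and 19.3 in BM + Spl (7 UMIs), a log2 ratio of 1.54 (-0.01 to 2.95). Tnfsf11 stood at 3.79 (8 UMIs) and 38.6 (14 UMIs), a log2 ratio of 3.35 (1.999 to 4.81), and Icos at 184 and 381, a log2 ratio of 1.05 (0.76 to 1.33). For Tnfsf8, Tnfrsf9 and Tnfrsf18 the log2 ratios were 0.39, 0.44 and -0.07, and their intervals included 0. Without a Zbtb16 UMI, the log2 ratios of Tnfrsf4, Tnfsf11, Tnfsf8 and Tnfrsf9 were 5.36, 5.24, 4.36 and 2.91. Icos had a log2 ratio of 1.01 (0.87 to 1.15) in these cells, close to its ratio with a Zbtb16 UMI. Cd4 in NKT1-like cells stood at 39.3 and 49.7 CPM with a Zbtb16 UMI, and at 28.8 and 254 without one.

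Splitting NKT1-like cells by TCR β variable segment, also chosen after the values had been seen, gave another view. Among cells with iNKT segments (1776 and 178), Tnfrsf4 stood at 3.85 CPM in BM only and 348 in BM + Spl, Tnfsf11 at 3.62 and 182, and Tnfsf8 at 12.0 and 228. Among cells with other segments (137 and 298), Tnfrsf4 stood at 75.5 and 532, Tnfsf11 at 23.7 and 244 and Tnfsf8 at 34.1 and 313. In both classes these 3 genes were therefore higher in BM + Spl. Within BM only, Tnfrsf4 was higher in cells with other segments than with iNKT segments by a log2 ratio of 4.29 (3.64 to 4.97), and within BM + Spl by 0.62 (0.43 to 0.80). Joining both splits, likewise afterwards, the 34 NKT1-like cells of BM + Spl with iNKT segments and a Zbtb16 UMI held 0 UMIs of Tnfrsf4 and 0 of Tnfsf8, which allows up to 11.1 CPM each, while the 144 with iNKT segments and no Zbtb16 UMI held 355 and 233. In BM only the corresponding 310 and 1466 cells stood at 2.92 and 4.08 CPM for Tnfrsf4. Treg-like cells also used these segments in 30.04% and 30.21% of assigned cells, so the segments alone do not set iNKT cells apart.

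In NKT2-like cells, 1 of 9 genes was past 1.5-fold, Tnfsf8, where 1.77% of 9399 genes were higher and 2.70% lower. Tnfsf8 rested on 21 UMIs in BM only and 101 in BM + Spl, and 72 of the 101 lay in the 49 cells without a Zbtb16 UMI. In cells with a Zbtb16 UMI it stood at 3.77 and 3.33 CPM. The other 8 genes had log2 ratios from -0.30 (Tnfrsf4; -0.70 to 0.10) to 0.14 (Icos; 0.07 to 0.21). Tnfrsf18, at 58.3 and 56.6 CPM, had a ratio of 0.971-fold (0.840 to 1.13).

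In NKT17-like cells 5 genes were higher past 1.5-fold (Tnfrsf4, Tnfrsf9, Tnfrsf18, Tnfsf8 and Tnfsf11) and 1 lower (Cd27), where 7.12% of genes were higher and 8.97% lower. Tnfrsf9 stood at 13.6 and 96.4 CPM in BM only and BM + Spl, 7.09-fold higher (4.82 to 10.7), and Tnfrsf4 at 44.9 and 304, 6.76-fold higher (5.47 to 8.42). Of these cells, 39.9% had a Zbtb16 UMI in BM only and 9.73% (25 cells) in BM + Spl, and 66.7% and 33.8% of assigned cells used iNKT segments. Cd27, with 93 and 31 UMIs, had a log2 ratio of -0.83 (-1.47 to -0.23), and of 0.58 (-0.33 to 1.40) in cells with a Zbtb16 UMI.

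Intermediate cells had 5 genes higher past 1.5-fold, where 9.53% of genes were higher, led by Tnfsf8 (32.2 and 286 CPM, 8.89-fold, 6.38 to 12.7) and Tnfrsf4 (55.7 and 376, 6.74-fold, 5.23 to 8.83). This gate also held different cells: 89.4% and 58.25% of assigned cells used iNKT segments, and 56.4% and 30.1% had a Zbtb16 UMI. Cd4 stood at 81.8 and 205 CPM. With a Zbtb16 UMI, Tnfsf8 and Tnfrsf4 were each 2.27-fold, and Tnfrsf9 and Tnfrsf18 were 0.886-fold and 1.14-fold, with intervals that included no difference for the last 2. Remaining cells had the same 5 genes higher, where 2.61% of genes were, and cycling-like cells had Tnfsf8 and Tnfsf11 higher, where 2.13% of genes were.

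Treg-like cells had nearly equal levels of the TNF receptor genes in both libraries. Tnfrsf4 had a ratio of 1.03-fold (0.998 to 1.06), Tnfrsf18 0.992-fold (0.948 to 1.04) and Tnfrsf9 1.11-fold (1.06 to 1.17). Only Tnfsf8 was past 1.5-fold, at 75.4 and 122 CPM, 1.61-fold (1.41 to 1.84), where 3.23% of genes were higher and 5.51% lower. With gate minimums raised by 2 UMIs it was not past the limit (log2 ratio 0.52), and the count of genes higher ran from 0 to 3 over the alternatives. Icos stood at 649.7 and 483, a log2 ratio of -0.43 (-0.50 to -0.35). In CD8-like cells Tnfsf8 (271 and 137) and Tnfsf11 (147 and 82.4) were lower past 1.5-fold in BM + Spl, 2 of 8 genes tested, where 6.49% of genes were lower.

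In pDC-like cells, which are not T cells, 7 of 8 genes tested were higher past 1.5-fold in BM + Spl, where 7.08% of all genes were, and Cd28 was 1.15-fold (0.840 to 1.60). In B cell-like cells only Tnfrsf18 had enough UMIs, and it was 2.28-fold higher (1.37 to 3.88). Tnfrsf4 stood at 42.4 CPM in pDC-like cells of BM only and 234 in BM + Spl, Cd3e in the same cells at 83.1 and 203, and Foxp3 at 17.1 and 41.3. In B cell-like cells Tnfrsf4 had 0 UMIs in BM only, which allows up to 5.37 CPM, and stood at 74.4 in BM + Spl. NKT2-like cells of the same libraries stood at 18.02 and 14.62. The part of transcripts from other cells, free RNA or doublets, in the values of T cell subsets was not tested.

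Of 51 further genes of these pathways, all were found in the files. Over all cells 50 had enough UMIs, of which 4 were higher past 1.5-fold in BM + Spl (Ctla4, Cd80, Cd70 and Lta) and 4 lower (Fasl, Tnfrsf8, Tnfrsf21 and Malt1), where 6.83% and 8.28% of all genes were, with a median log2 ratio of -0.06 against 0.004 for all genes. In NKT1-like cells 16 of 43 were higher and 3 lower, where 11.3% and 10.1% of all genes were, with a median of 0.32 against 0.04. Among the ligands, Cd70, which binds CD27, stood at 0.642 and 31.6 CPM (7 and 99 UMIs), Lta, encoding lymphotoxin-α, at 13.4 and 122, and Tnfsf9, the 4-1BB ligand, at 7.61 and 41.2. Tnfsf4, the OX40 ligand, stood at 5.96 and 15.7, Tnfsf14 at 21.4 and 43.1, Tnfsf10, encoding TRAIL, at 36.4 and 63.3, Icosl at 5.59 and 9.59 and Cd86 at 2.02 and 13.1.

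Among the inhibitory receptors, Ctla4 stood at 7.79 and 129.7 CPM in NKT1-like cells of BM only and BM + Spl, and Pdcd1, encoding PD-1, at 29.1 and 165. Ctla4 belongs to the Treg list and Pdcd1 to the NKT2 list, so both took part in the gates. Of the TNF receptor genes, Tnfrsf13b had a log2 ratio of 2.65, Tnfrsf25 of 1.25 and Fas of 0.77. Of the signaling genes, Traf1 (75.5 and 181), Nfkb1 (96.4 and 206) and Traf3 (24.2 and 37.4) were higher. Malt1 (134 and 80.2), Tnfrsf14 (6.42 and 3.20) and Tnfrsf26 (8.53 and 4.79) were lower. In NKT2-like cells 1 of 37 genes was higher past 1.5-fold, where 1.77% of all genes were, Tnfrsf14 (4.01 and 6.59), and its interval included no difference.

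The pattern of each gene over 28 subset and library profiles was set beside that of 9913 genes, with levels centred within each library. Points within a library share a kit but differ in depth per cell, and neighbouring subsets share the gate rules, so these correlations only describe. The profiles include B cell-like and pDC-like cells, which are not T cells, and cells under 2500 UMIs. Cd28 stood at 10.7 and 43.2 CPM in B cell-like and pDC-like cells of BM only. Contrasts between T cells and other cells therefore enter the correlations. The nearest patterns were Gata3 (r = 0.94), Fam129a and Il12rb1 for Icos, and Dok2 (r = 0.95), Skap1 and Tes for Cd28. Cd27 lay nearest to Gm11707 (r = 0.89), Prkch and Gm20234, and Cd40lg to Rab4a (r = 0.93), Podnl1 and Tob1. Tnfrsf4 lay nearest to Ctla4 (r = 0.95), Tff1 and C1qtnf12, Tnfrsf9 to Ikzf4 (r = 0.92), Tnfrsf4 and Lclat1, and Tnfrsf18 to Nfkbia (r = 0.93), Hopx and Cish. Tnfsf8 lay nearest to Trbv5 (r = 0.91), Ptpn13 and Bace2, and Tnfsf11 to Cd82 (r = 0.88), Tbc1d4 and Aplp1. Gata3, Ctla4 and Ikzf4 were themselves gate genes.

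Among the 9 genes, Tnfrsf4 and Tnfrsf9 were most alike (r = 0.91), followed by Tnfrsf4 and Tnfrsf18 (r = 0.87), Tnfrsf9 and Tnfrsf18 (r = 0.84) and Tnfsf8 and Tnfsf11 (r = 0.83), over the same 28 profiles. Cd28 was near to Cd40lg, Cd27 and Icos (each r = 0.82). Tnfrsf4 and Cd40lg were least alike (r = 0.001), with Treg-like cells high in the former and low in the latter.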

How the data were processed

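The authors deposited raw UMI counts per gene and cell for each library, made with Cell Ranger and the mm10 reference; the matrix headers name version 3.0.2 for C57BL/6 and 7.0.0 for both BMT libraries, another version than the methods state. The submitters' processing notes also name Seurat 4.0.2. Versions from 7.0.0 on count intronic reads by default. The study's text gives another age for these C57BL/6 mice than the label.

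The filter on cells was more than 200 genes, fewer than 6000, and mitochondrial UMIs below 10%. Each cell was thinned to 2500 UMIs (seed 7) for gating, and cells below that were left unassigned. Gates needed 2 to 4 UMIs of a marker list, but any Foxp3 UMI in the full counts also made a cell Treg-like. This Foxp3 rule came after the B cell, pDC and myeloid gates and stayed the same when gate minimums were raised. NKT1-like and NKT2-like cells needed at least 3 UMIs of their own list and over 2 times those of the other. NKT2-like cells also needed a UMI of Zbtb16, Il17rb or Il4. No doublet caller was run; leaving out the 5% of cells with most UMIs was tried. Levels are summed raw counts per 1000000 UMIs of a subset (CPM) over genes listed in all libraries, with exact Poisson intervals; shares have Clopper-Pearson intervals, and ratios have conditional exact binomial intervals, all at 95%. A gene was compared with at least 50 UMIs in both sides together, and 1.5-fold was the limit. Counts of genes under the alternative settings took at least 10 UMIs instead. A count of 0 was given the limit of 3 counts. V beta class needed 80% of a cell's Trbv UMIs in a single segment. The iNKT class took Trbv1, Trbv13-1, Trbv13-3, Trbv29 and the pair Trbv12-2 and Trbv13-2, which were summed as a single segment. The other class took any other segment. Cells in which no segment reached 80% were mixed and not counted as assigned, 256 of the 2237 NKT1-like cells in BM only. Pattern correlations used log2(CPM + 10), genes with at least 500 UMIs and profiles of at least 50 cells. Named genes were all 9 genes, the pathway genes past 1.5-fold in all, NKT1-like or NKT2-like cells, and for each gene the 3 nearest patterns. The genes and lists were chosen with earlier results of these data known. Software was scipy 1.17.1, pandas 2.3.3, numpy 2.4.6 and Python 3.11.15. The ratio and gate steps were tried only on simulated counts drawn independently and on simulated cells with markers of a single list. Such data do not test the intervals or the gates on the cells used here.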

Additional observations from a re-analysis of the deposited data

Results flagged for a closer look

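The order of NKT2-like and NKT1-like cells went opposite ways between libraries for 3 genes, with counting intervals apart from 0 on both sides. For Tnfrsf4 the log2 ratio of NKT2-like over NKT1-like cells was 0.97 in C57BL/6, 0.76 in BM only and -4.86 in BM + Spl. For Tnfrsf9 the ratios were 1.36, 0.84 and -1.80 in the same order, and for Tnfsf11 they were 3.73, 3.16 and -2.06. With 1 library per group the difference between libraries was not tested. The NKT2-like levels in BM + Spl were 0.811-fold, 1.05-fold and 0.984-fold of those in BM only for the 3 genes, and the NKT1-like levels were 39.9-fold, 6.58-fold and 36.8-fold. The NKT1-like gate held different cells: 92.8% of assigned cells in BM only and 37.4% in BM + Spl used iNKT segments. In BM + Spl cells with a Zbtb16 UMI, Tnfsf11 stood at 42.6 CPM in NKT2-like and 38.6 in NKT1-like cells. Tnfrsf9 stood at 53.6 and 44.2, and Tnfrsf4 at 9.41 and 19.3 (82 and 7 UMIs). The intervals of each of these pairs overlapped. In BM only cells with a Zbtb16 UMI, Tnfsf11 stood at 49.0 in NKT2-like and 3.79 in NKT1-like cells, with intervals apart. Tnfrsf9 stood at 50.5 and 32.65 with intervals apart, and Tnfrsf4 at 14.0 and 6.62 with overlapping intervals. Among NKT1-like cells with iNKT segments, Tnfrsf4, Tnfrsf9 and Tnfsf11 were 90.35-fold, 5.14-fold and 50.4-fold in BM + Spl over BM only.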

How the results depend on the processing

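No paired analysis was possible because each group had 1 library. No filter on cells, another total (without mitochondrial, ribosomal and receptor segment genes) or the median ratio over genes as scale (shifts of -0.05 to 0.07 on the log2 scale) turned no direction and moved no count by over 1.5 times. Restricting to cells with a Zbtb16 UMI, chosen after seeing the data, moved several counts: the count of genes higher past 1.5-fold in BM + Spl became 0 over all cells, 3 in NKT1-like, 2 in intermediate, 0 in NKT2-like, 2 in NKT17-like and 3 in Treg-like cells, and log2 ratios turned to -0.049 (Tnfsf8, all cells), -0.072 (Tnfrsf18, NKT1-like), -0.17 (Tnfrsf9, intermediate), -0.18 (Tnfsf8, NKT2-like) and 0.58 (Cd27, NKT17-like). Cells with no UMI of the Treg list, also chosen later, gave 0 higher and 1 lower in NKT2-like, 1 lower in NKT1-like and 0 lower in NKT17-like cells (Cd27 0.36). Cells with a Trav11 UMI gave 2 higher over all cells; their NKT1-like ratios of -0.60 (Icos) and -0.95 (Tnfrsf18) rest on 1 cell in BM + Spl. Gates on full UMIs gave 1 lower in NKT1-like, 0 lower in NKT17-like (Cd27 0.026) and 3 higher in Treg-like cells. Treg-like counts of genes higher were also 0 with gate minimums raised by 2, 2 without the 5% deepest cells, 2 by the mean over cells, 3 with iNKT segments and 3 thinned. The mean over cells and thinning each gave 1 lower in NKT1-like cells, and the mean over cells gave 1 lower in NKT2-like cells. With 0 genes lower in the main count, 1 is a move of a single gene. Over counts and single log2 ratios together, more moved than is listed here. With iNKT segments 23 moved and 31 stayed the same, thinned 21 and 33, and by the mean over cells 19 and 62. Gates on full UMIs moved 22, reversed 1 and kept 49, and raised minimums moved 16 and kept 56. The median ratio as scale moved 1 and kept 53. The cause of the other moves was not tested. Counts under these alternatives took genes with at least 10 UMIs in both sides together, against 50 in the main counts. The share of all genes past 1.5-fold was counted under these restrictions only over all cells with a Zbtb16 UMI, at 2.12% higher and 7.79% lower. The other counts have no such share beside them and only show how the main counts moved. Few UMIs limit Tnfrsf4 and Tnfsf8 in C57BL/6, and the number of cells limits all genes in the 47 NKT1-like cells of BM + Spl with a Zbtb16 UMI.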
